A study of Mus musculus with 12 samples.

Results

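Glycolysis is the chain of cytosolic reactions that turns glucose into pyruvate, and in these data it was followed through 10 enzyme genes: Hk1, Hk2, Pfkl, Pfkp, Aldoa, Gapdh, Pgk1, Eno1, Pkm and Ldha. They were taken by gene symbol from the deposited table of 40481 genes, which held each of the 10 under a single Ensembl identifier, and all 10 passed the filter on low values described below. The list was set by gene name, but with earlier results of these data known. The cells were mouse hematopoietic stem cells (HSCs), the rare blood-forming cells that give rise to every blood lineage, taken from E14.5 embryos, as fetal liver, or from the bone marrow of mice 8 weeks old. They were wild type (WT) or carried iE/R, an inducible allele of ETV6-RUNX1, the fusion of 2 transcription factor genes that is known from childhood acute lymphoblastic leukemia. The 4 groups were therefore WT fetal liver, ETV6-RUNX1 fetal liver, WT bone marrow and ETV6-RUNX1 bone marrow, with 3 libraries each and 12 in all. Every group, WT included, had been expanded ex vivo for 3 days with doxycycline, the agent that switches inducible alleles on, at 1 µg/mL, so the levels are those of cultured cells and no group shows cells without the drug. The labels did not say whether the 3 libraries of a group came from separate animals or cultures, and p-values measure only the spread between these libraries. The sex of the animals, the number pooled per library and the strain were not given in the sources used here, and the level of the fusion itself was not analysed here.

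In glycolysis, hexokinase traps glucose in the cell as glucose 6-phosphate, phosphofructokinase commits the sugar to breakdown, aldolase splits it, and the lower steps recover ATP and NADH before pyruvate is either reduced to lactate or sent to the mitochondria. Most steps have several isozymes encoded by different genes, which differ in tissue and in how they are regulated. HSCs in the marrow are known to lean on glycolysis more than on mitochondrial respiration, and the hypoxia-inducible factors (HIFs) and MYC are known activators of many of these genes.

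Promoter sequences are shown for the genes that differed most between genotypes in both sources, Ldha, Pgk1, Eno1 and Gapdh, which were lower with the fusion, and Hk1, which was higher. Ldha, Eno1 and Hk1 have more than 1 RefSeq start. For Hk1 both of its 2 starts, which lie far apart, are shown. For the others only the start nearest the 5′ end of the gene in the GENCODE annotation is shown, which for Ldha lies 4329 bases from that end. Each is the 250 bases before a RefSeq transcription start on GRCm38.p6, read 5′ to 3′ along the gene's strand, with capitals marking every match on either strand to ACGTG or GCGTG, the core letters to which HIFs bind.

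Ldha, chr7:46845554-46845803, plus strand: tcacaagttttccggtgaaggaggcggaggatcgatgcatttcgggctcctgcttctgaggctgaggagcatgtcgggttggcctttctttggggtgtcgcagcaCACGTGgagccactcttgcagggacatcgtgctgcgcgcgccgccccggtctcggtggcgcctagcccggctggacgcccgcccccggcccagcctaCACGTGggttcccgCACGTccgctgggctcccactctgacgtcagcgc

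Pgk1, chrX:106186850-106187099, plus strand: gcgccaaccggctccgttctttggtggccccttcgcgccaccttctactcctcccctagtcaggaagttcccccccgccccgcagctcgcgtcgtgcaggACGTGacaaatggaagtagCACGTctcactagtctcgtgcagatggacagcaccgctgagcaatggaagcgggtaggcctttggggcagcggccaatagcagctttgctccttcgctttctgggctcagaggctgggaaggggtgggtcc

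Eno1, chr4:150236458-150236707, plus strand: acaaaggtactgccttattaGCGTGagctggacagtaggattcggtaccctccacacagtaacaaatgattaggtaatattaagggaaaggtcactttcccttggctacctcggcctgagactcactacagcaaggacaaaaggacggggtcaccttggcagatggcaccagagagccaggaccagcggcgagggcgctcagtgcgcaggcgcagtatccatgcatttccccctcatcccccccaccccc

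Gapdh, chr6:125165774-125166023, minus strand: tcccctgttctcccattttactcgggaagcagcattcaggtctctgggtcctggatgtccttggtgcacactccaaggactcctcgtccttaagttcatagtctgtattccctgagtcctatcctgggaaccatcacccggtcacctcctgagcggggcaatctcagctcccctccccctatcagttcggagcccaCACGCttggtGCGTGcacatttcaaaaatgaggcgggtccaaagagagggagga

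Hk1, upstream start, chr10:62379909-62380158, minus strand: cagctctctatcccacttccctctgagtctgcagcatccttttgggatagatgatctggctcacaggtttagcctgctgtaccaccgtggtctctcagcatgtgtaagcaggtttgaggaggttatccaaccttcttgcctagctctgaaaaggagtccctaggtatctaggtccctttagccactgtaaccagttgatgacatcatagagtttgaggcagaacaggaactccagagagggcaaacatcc

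Hk1, downstream start, chr10:62340422-62340671, minus strand: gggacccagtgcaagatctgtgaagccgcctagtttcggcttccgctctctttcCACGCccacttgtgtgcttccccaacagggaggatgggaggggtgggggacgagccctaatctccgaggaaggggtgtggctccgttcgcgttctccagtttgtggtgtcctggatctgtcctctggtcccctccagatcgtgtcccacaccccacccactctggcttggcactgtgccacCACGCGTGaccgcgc

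The printed Ldha stretch held 3 capital runs, of which 2 were the palindrome CACGTG, the letters bound by MYC with its partner. Pgk1 held 2 runs, Gapdh 2 and Eno1 1, while the upstream Hk1 start held none and the downstream Hk1 start held 2. All 10 genes had at least 1 RefSeq window of 250 bases before to 50 bases after a start, 17 windows in all. In these windows ACGTG was present in 8 of 17 (47.1%), against 19.6% of all 32851 windows, and GCGTG in 9 of 17 (52.9%), against 32.4%. CACGTG, which contains ACGTG, was present in 1 of 17 (5.88%) and in 7.15% of all windows. TGTGGT, the core bound by RUNX proteins, was in 3 of 17 (17.6%) and in 16.8% of all, CGGAAG, the core bound by ETS proteins such as ETV6, in 2 of 17 (11.8%) and in 16.9%, and GGGCGG, the GC box, in 10 of 17 (58.8%) and in 35.7%. Several windows of 1 gene overlap or lie close together, both strands were searched, and a match describes letters only and shows no binding.

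Total RNA was sequenced, and the authors deposited gene values as CPM, reads scaled to a common library total. Library totals recovered from the table were 32.3 to 64.5 M reads, with the fusion libraries from bone marrow among the shallowest at 32.3 to 37.0 M. A count of 3 reads corresponded to 0.0465 to 0.0928 CPM, and the lowest value of any of the 10 enzymes, 43.3 CPM for Hk2, was far above it. The floor reflects counting error alone, because these reads carry no molecular identifiers and can be copies of 1 molecule. Of the 9 HSC markers checked (Kit, Cd34, Procr, Slamf1, Mecom, Hlf, Ly6a, Gata2 and Meis1), 9 reached 1 CPM, and their summed level was 1445 to 2135 CPM in WT bone marrow, 2381 to 2809 in ETV6-RUNX1 bone marrow, 1082 to 1361 in WT fetal liver and 3049.8 to 3245 in ETV6-RUNX1 fetal liver. Markers of maturing lineages were present too. The 7 megakaryocyte markers summed to 1375 to 1836 CPM in WT bone marrow, 477 to 2114 in ETV6-RUNX1 bone marrow, 3104 to 4597 in WT fetal liver and 7310 to 8105 in ETV6-RUNX1 fetal liver, and the 9 erythroid markers to 236 to 519.6, 421 to 633, 731 to 1013 and 1448 to 2223 CPM in the same order. The globin gene Hbb-bt alone averaged 297, 488, 815 and 1611 CPM in that order, so the erythroid sums are largely those of 1 gene. Klf1, another of these markers, averaged 0.654 CPM in WT and 0.175 CPM in fusion fetal liver. Xist, the X-inactivation RNA, ranged over 0.175 to 1.27 CPM in bone marrow and 51.7 to 89.3 CPM in fetal liver. The source of the cells and this difference in Xist cannot be told apart.

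The 10 enzymes together took 1.24 to 1.38% of the reads in WT fetal liver, 0.788 to 0.990% in ETV6-RUNX1 fetal liver, 1.02 to 1.15% in WT bone marrow and 0.745 to 0.850% in ETV6-RUNX1 bone marrow. In both sources each WT library was above each fusion library. Levels were also set per kilobase of annotated exon, with every base in any annotated exon of the gene counted. This length was 2911 bases for Aldoa, 4133 for Gapdh, 5379 for Eno1 and 13401 for Pfkp. Which transcripts were present was not measured, so the order of genes on this scale can depend in part on the annotation. On this scale the enzymes from aldolase onwards were far above the hexokinases and phosphofructokinases. Aldoa led each group, with a mean level of 896 CPM per kb in WT fetal liver, 780 in ETV6-RUNX1 fetal liver, 648 in WT bone marrow and 522 in ETV6-RUNX1 bone marrow, although its libraries overlapped those of Pkm in both bone marrow groups. Pkm and Ldha came next. Ldha was above Pkm in each library of WT fetal liver (737 ± 7.42 against 596 ± 75.9 CPM per kb, SD, n = 3), below it without overlap in both bone marrow groups, and overlapped it in ETV6-RUNX1 fetal liver. Gapdh and Eno1 followed and overlapped in all 4 groups, with Pgk1 below them, overlapping Eno1 in both fusion groups. At the bottom of the order, the upper-step enzymes changed places between groups. Pfkl was above Hk1 in WT fetal liver (45.3 against 21.9 CPM per kb, no overlap), and Hk1 was above Pfkl in ETV6-RUNX1 fetal liver (33.9 against 26.3 CPM per kb, no overlap), while in bone marrow these 2 overlapped in either genotype. Hk2 had the lowest mean in both bone marrow groups, with 8.03 CPM per kb in WT and 7.56 in ETV6-RUNX1 cells, where it overlapped Pfkp (7.25 to 8.09 against 6.68 to 9.70). Pfkp was last in both fetal liver groups, with 7.48 in WT and 6.72 in ETV6-RUNX1 cells.

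**Figure D1:**
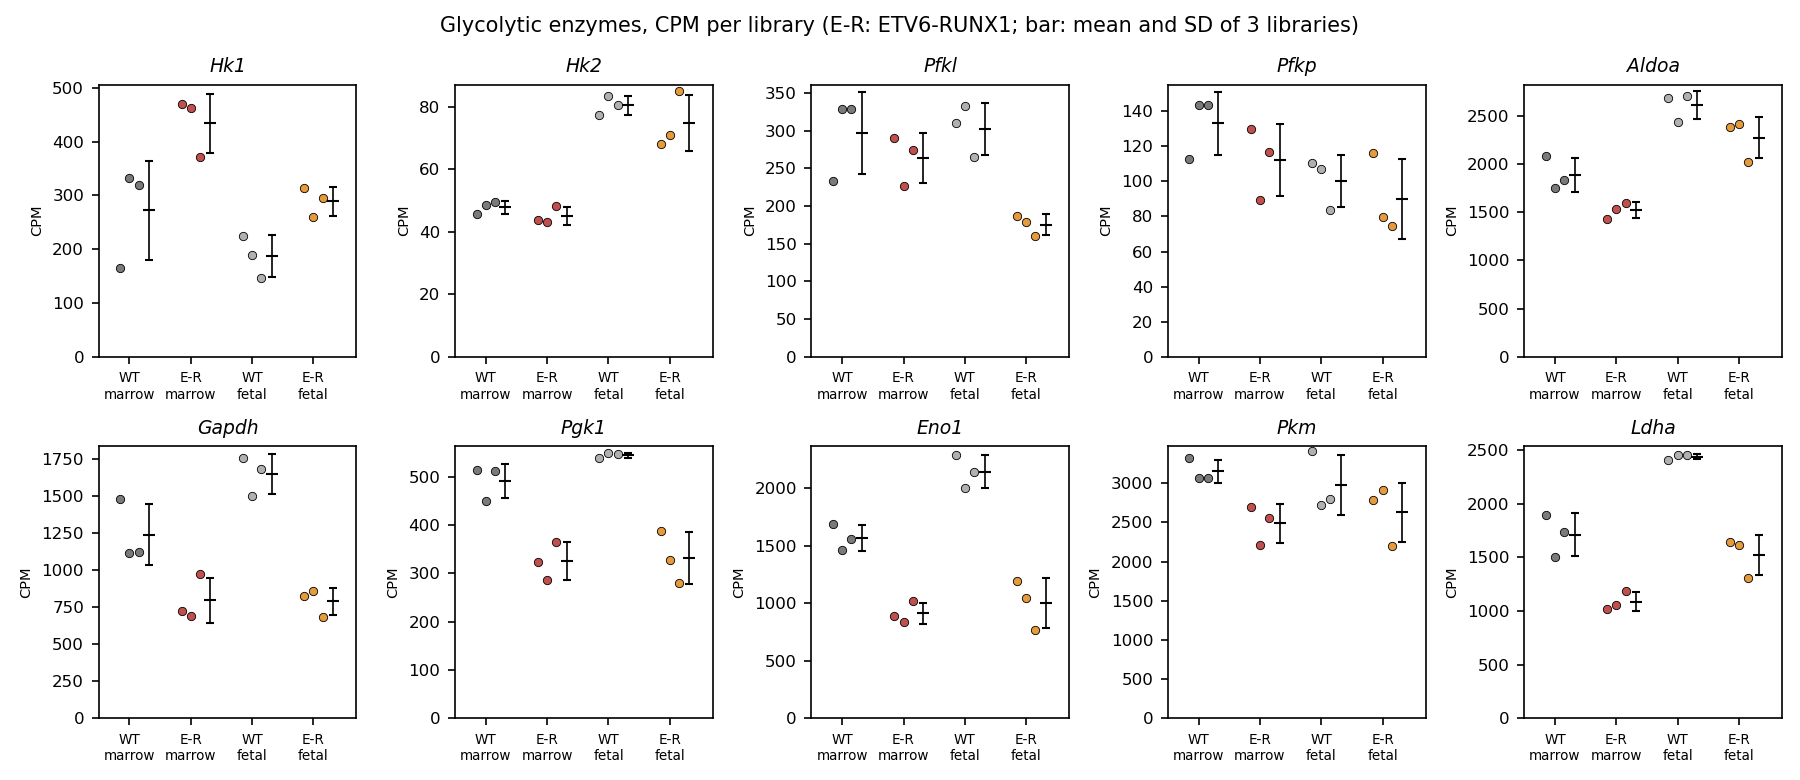
CPM of each of the 10 enzymes in every library, with bars for the mean and SD of the 3 libraries of each group (vertical axes in CPM from 0, 1 panel per gene; WT and ETV6-RUNX1, marked E-R, from bone marrow and fetal liver). Gapdh, Pgk1, Eno1 and Ldha were lower in all ETV6-RUNX1 libraries than in all WT libraries of the same source, Hk1 was higher, and Hk2 followed the source of the cells.

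ETV6-RUNX1 against WT in fetal liver asked what the fusion did to these genes in fetal cells. Of the 10 enzymes, 1 rose (Hk1) and 5 fell (Pfkl, Gapdh, Pgk1, Eno1 and Ldha) at a limma adjusted p under 0.05, adjusted over all 14271 genes tested. Over all genes tested, 43.1% were called in this comparison, 24.8% as higher and 18.3% as lower, so calls were common. Of all genes called, 3544 were higher and 2607 lower, a split that quantile normalization turned to 2717 and 3746. The 5 falls thus took 50% of the enzymes. The median log2 fold change over the 10 enzymes was -0.44, and over all genes 0.08. In 1 of 10 enzymes all fusion libraries were above all WT libraries, and in 6 of 10 all were below, against 32.3% and 23.3% of all genes.

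At the first step, Hk1, the widely expressed hexokinase (ENSMUSG00000037012, chr10:62268855-62379908, minus strand), was 225, 189.8 and 147 CPM in the 3 WT fetal liver libraries and 313, 259 and 294 CPM in the 3 fusion libraries. All 3 fusion libraries were above the 3 WT ones. The mean was 1.55 times the WT mean (log2FC 0.64 with SE 0.23, limma adjusted p = 0.0359). This call was lost under 7 of 22 alternatives, with the change smallest, 0.26, and the limma adjusted p 0.365 when the share of reads in processed pseudogenes, 1.65 to 2.36% in WT and 1.23 to 1.90% in fusion fetal liver, was a covariate, and it was lost without WT fetal liver replicate 2 or 3 or ETV6-RUNX1 fetal liver replicate 1 or 3. Hk2, the hexokinase that HIF and growth signals are known to induce (ENSMUSG00000000628, chr6:82725025-82774454, minus strand), was 77.4, 83.6 and 80.5 CPM in WT and 68.3, 71.1 and 85.0 CPM in fusion cells. The groups overlapped and the log2 difference of -0.11 did not pass the test (limma adjusted p = 0.503).

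The 2 phosphofructokinase genes encode the liver-type and platelet-type subunits of the committing enzyme. Pfkl (ENSMUSG00000020277, chr10:77986947-78010083, minus strand) was 309.8, 332 and 265 CPM in WT and 187, 178 and 160.3 CPM in fusion fetal liver. It fell in the fusion cells without overlap, to 0.580 times the WT mean (log2FC -0.78 with SE 0.15, limma adjusted p = 0.00113). Pfkp (ENSMUSG00000021196, chr13:6579768-6648777, minus strand) was 110.3, 107 and 83.4 CPM in WT and 116, 79.6 and 74.3 CPM in fusion cells. Its groups overlapped, with the highest value of the 6 in a fusion library, and the log2 difference of -0.17 did not pass (limma adjusted p = 0.500). Exons of Pfkp overlap those of Pitrm1 on the other strand, a mitochondrial peptidase gene at 50.6 to 197 CPM, and the use of strand in counting is not given in the sources used here, so Pfkp values are uncertain.

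Aldoa, the muscle-type aldolase that splits fructose 1,6-bisphosphate (ENSMUSG00000030695, chr7:126795234-126800751, minus strand), was 2678, 2437 and 2706 CPM in WT and 2378, 2408 and 2023 CPM in fusion fetal liver. The fusion libraries were all below the WT ones, but the distance was small beside their spread and the log2 difference of -0.20 did not pass (limma adjusted p = 0.209).

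The steps that recover ATP and NADH held the largest falls. Gapdh, which makes NADH and 1,3-bisphosphoglycerate (ENSMUSG00000057666, chr6:125161715-125166467, minus strand), was 1761, 1501 and 1688 CPM in WT and 829.6, 858 and 685 CPM in fusion cells. The lowest WT library was well above the highest fusion library, and the fusion mean was 0.479 times the WT mean (log2FC -1.06 with SE 0.16, limma adjusted p = 0.000134). Pgk1, the X-linked kinase of the first ATP-yielding step (ENSMUSG00000062070, chrX:106187100-106203699, plus strand), was 538, 549 and 546 CPM in WT, where the libraries nearly coincided, and 388, 329 and 279 CPM in fusion cells. It fell to 0.610 times the WT mean (log2FC -0.72 with SE 0.14, limma adjusted p = 0.000754).

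Eno1, the main enolase outside muscle and neurons (ENSMUSG00000063524, chr4:150236721-150248879, plus strand), was 2288, 1997 and 2140.2 CPM in WT and 1192, 1047 and 767 CPM in fusion fetal liver. Its fall was the largest of the 10, to 0.468 times the WT mean (log2FC -1.12 with SE 0.16, limma adjusted p = 6.65e-05). Eno1b, a near copy of Eno1, was at 19.4 to 54.6 CPM over the 12 libraries, and reads of the copies cannot be told apart with certainty. Pkm, the pyruvate kinase of dividing and of muscle cells (ENSMUSG00000032294, chr9:59656368-59679375, plus strand), was 3416, 2721 and 2803 CPM in WT and 2781, 2909 and 2198 CPM in fusion cells. Its groups overlapped, with 2 of 3 fusion libraries inside the WT range, and the log2 difference of -0.18 did not pass (limma adjusted p = 0.335).

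Ldha, which reduces pyruvate to lactate and returns NAD+ to the Gapdh step (ENSMUSG00000063229, chr7:46841475-46855627, plus strand), was 2413, 2451 and 2459 CPM in WT and 1648, 1617 and 1312 CPM in fusion fetal liver. The fusion libraries were all lower, with a mean 0.625 times that of WT (log2FC -0.69 with SE 0.13, limma adjusted p = 0.000975). The processed copy Ldha-ps2 was listed at 6.96 to 12.3 CPM and Pgk1-rs7, a copy of Pgk1, at 1.37 to 4.15 CPM, which is little beside the parent genes. The Gapdh copies Gapdh-ps15 and Gapdh-ps14 reached at most 0.946 and 0.251 CPM. Copies were sought by enzyme name only. The treatment of multimapping reads is not given, so low values of a copy do not show that its parent lost no reads. The calls of Pfkl, Gapdh, Pgk1, Eno1 and Ldha held under all 22 alternatives. Quantile normalization moved the median of all genes in this comparison from 0.08 to -0.10, and under it Aldoa and Pkm turned to the positive side, with log2 differences of 0.29 (limma adjusted p = 0.0286) and 0.30 (limma adjusted p = 0.0989).

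ETV6-RUNX1 against WT in bone marrow put the same question to adult cells. Here 1 enzyme rose (Hk1) and 4 fell (Gapdh, Pgk1, Eno1 and Ldha) by limma, against 19.4% of all genes called, 14.4% as higher and 4.93% as lower. The median log2 fold change was -0.33 over the 10 enzymes and 0.13 over all genes. All fusion libraries were above all WT libraries in 1 of 10 enzymes and below them in 6 of 10, against 23.6% and 10.9% of all genes. Under median-of-ratios scaling the median of all genes moved to -0.00 and that of the enzymes to -0.48. The calls over all genes, 2059 higher and 704 lower, then split into 1432 higher and 1397 lower, and those among the enzymes into 0 higher and 4 lower. Leaving out replicate 1 or replicate 2 of ETV6-RUNX1 bone marrow lowered the count of enzymes called to 3.

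Eno1 fell the most, from 1687, 1461 and 1555 CPM in WT to 884, 839 and 1014 CPM in fusion bone marrow. The groups lay far apart, and the fusion mean was 0.582 times that of WT (log2FC -0.78 with SE 0.16, limma adjusted p = 0.00423). Ldha was 1895, 1499 and 1739 CPM in WT and 1019.6, 1055 and 1191 CPM in fusion cells, again without overlap (log2FC -0.65 with SE 0.13, limma adjusted p = 0.00519). Pgk1 was 514, 450.2 and 511 CPM in WT and 324, 287 and 365 CPM in fusion cells, and it fell to 0.662 times the WT mean (log2FC -0.60 with SE 0.14, limma adjusted p = 0.00880). These 3 calls held under all 22 alternatives. Gapdh was 1483, 1119 and 1125 CPM in WT and 727, 695 and 972 CPM in fusion cells. Its groups did not overlap (log2FC -0.64 with SE 0.16, limma adjusted p = 0.0141), but the call was lost without ETV6-RUNX1 bone marrow replicate 1 or 2 and when all genes with reads were tested, with limma adjusted p up to 0.0652.

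Hk1 was the one enzyme that rose in bone marrow. It was 166, 332 and 319 CPM in WT and 469, 462 and 371 CPM in fusion cells (log2FC 0.73 with SE 0.23, limma adjusted p = 0.0393). The groups did not overlap, but WT replicate 1 lay far below the other two WT libraries. Without it the log2 difference was 0.41 (limma adjusted p = 0.121), and the call was lost under 11 of 22 alternatives, edgeR and DESeq2 on recovered reads among them.

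Aldoa and Pkm were lower in each fusion library than in each WT library of bone marrow without passing the test. Aldoa was 2083, 1745 and 1833 CPM in WT and 1431, 1534 and 1592 CPM in fusion cells, a log2 difference of -0.31 (limma adjusted p = 0.0969). Pkm was 3320.2, 3066 and 3073 CPM in WT and 2698, 2215 and 2560.1 CPM in fusion cells, a log2 difference of -0.34 (limma adjusted p = 0.114). Both passed with edgeR and with DESeq2. The remaining 3 overlapped between genotypes. Pfkl was 233, 329 and 328 CPM in WT and 291, 227 and 274 CPM in fusion cells (limma adjusted p = 0.502). Pfkp was 113, 144 and 143 and 130.0, 89.5 and 117 CPM (limma adjusted p = 0.372), and Hk2 was 45.6, 48.7 and 49.5 and 43.8, 43.3 and 48.3 CPM (limma adjusted p = 0.663), in the same order of genotypes.

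**Figure D2:**
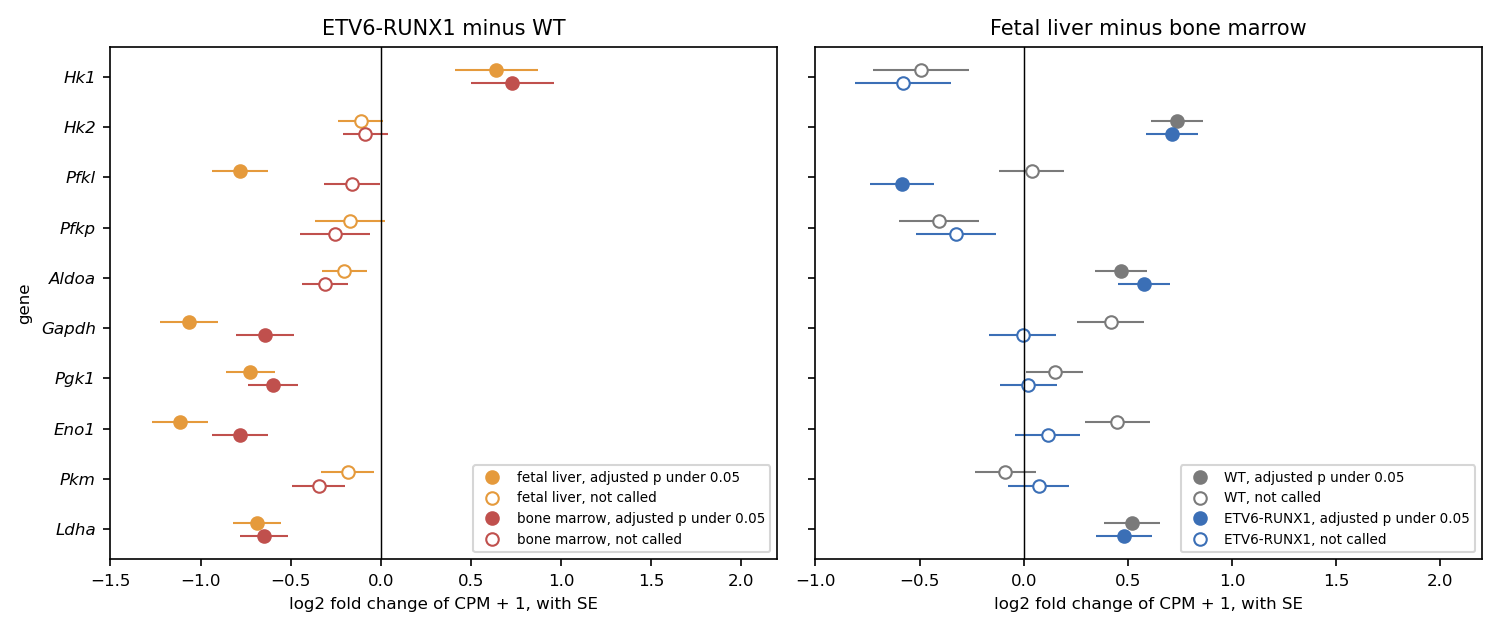
Log2 fold changes of CPM + 1 with standard errors for the 10 enzymes (horizontal axis), on the left ETV6-RUNX1 minus WT in fetal liver and in bone marrow, on the right fetal liver minus bone marrow in WT and in ETV6-RUNX1 cells. Filled points passed the limma test at an adjusted p under 0.05: on the left Hk1 lay above 0 and Gapdh, Pgk1, Eno1 and Ldha below it in both sources, with Pfkl called in fetal liver, and on the right Hk2, Aldoa and Ldha lay above 0 in both genotypes.

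Whether the effect of the fusion differed by source was tested as an interaction. By limma 0 of 10 enzymes passed, against 9.19% of all genes, 5.56% as higher and 3.62% as lower (794 and 517 genes, or 1014 and 347 under median-of-ratios scaling). At an unadjusted p under 0.05 it was 1 of 10, Pfkl, by limma, by edgeR and by DESeq2 alike, and neither edgeR nor DESeq2 called any after adjustment. For Pfkl the difference of the effects (fetal liver minus bone marrow) was -0.62 ± 0.22 (SE) on the log2 scale, with a limma adjusted p of 0.0890 and a range of 0.0444 to 0.195 over its alternatives. Only the fit with array weights, which lets noisier libraries count less, called it. The falls of Gapdh and Eno1 were nominally larger in fetal liver, by -0.42 and -0.33 on the log2 scale, with limma adjusted p of 0.252 and 0.353. The median difference over the 10 enzymes was -0.06, and over all genes -0.05. The calls in one source and not in the other, such as that of Pfkl, are therefore not shown to differ between sources.

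Fetal liver was then set against bone marrow within each genotype. These comparisons share libraries with those between genotypes and their values are given side by side. In WT cells 3 of 10 enzymes rose in fetal liver (Hk2, Aldoa and Ldha) and 0 fell, against 11.1% of all genes called, 3.38% as higher and 7.77% as lower. Groups did not overlap for 6 of 10 that were higher and 1 of 10 that was lower in fetal liver, against 10.6% and 18.9% of all genes. The median log2 fold change was 0.28 over the enzymes and -0.07 over all genes. Median-of-ratios scaling turned the calls over all genes from 482 higher and 1109 lower to 655 and 943. In ETV6-RUNX1 cells 3 rose (the same 3) and 1 fell (Pfkl), against 28.6% called, 10.4% as higher and 18.2% as lower. Groups did not overlap for 3 of 10 that were higher and 2 of 10 that were lower, against 14.4% and 27.8%, and the medians were 0.05 and -0.16. Under median-of-ratios scaling these last 2 moved to 0.22 and -0.00, and the calls over all genes from 1484 higher and 2604 lower to 2063 and 1450.

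Hk2 had the clearest dependence on source. With values of 77.4 to 83.6 CPM in WT and 68.3 to 85.0 CPM in fusion fetal liver, and 45.6 to 49.5 and 43.3 to 48.3 CPM in bone marrow, the sources did not overlap in either genotype. It rose by 0.74 ± 0.13 on the log2 scale in WT (limma adjusted p = 0.00143) and by 0.71 ± 0.13 in fusion cells (limma adjusted p = 0.000784), and both calls held under all 22 alternatives. Aldoa rose by 0.47 in WT (limma adjusted p = 0.0256) and by 0.58 in fusion cells (limma adjusted p = 0.00368), and Ldha by 0.52 (limma adjusted p = 0.0208) and 0.48 (limma adjusted p = 0.0151). In WT these last 2 calls were each lost under 7 of 22 alternatives. In fusion cells the call of Ldha was lost under 5 of 22, with all genes with reads, with the pseudogene covariate and without ETV6-RUNX1 bone marrow replicate 1 or ETV6-RUNX1 fetal liver replicate 1 or 2 (limma adjusted p up to 0.0737), and that of Aldoa under 0.

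The WT count of 3 was 1 without WT bone marrow replicate 2 or 3 or WT fetal liver replicate 1 or 3, and 5 without WT bone marrow replicate 1. With array weights it was 7, and under quantile normalization 1. Gapdh and Eno1 were higher in each WT fetal liver library than in each WT bone marrow library, by 0.42 and 0.45 on the log2 scale, without passing (limma adjusted p = 0.116 and 0.0804). In the fusion cells their sources overlapped, with log2 differences of -0.00 and 0.12. Pfkl did not differ by source in WT beyond its spread (0.04, limma adjusted p = 0.908) and fell in fusion fetal liver against fusion bone marrow (log2FC -0.58 with SE 0.15, limma adjusted p = 0.0121), a call lost when replicate 1 of ETV6-RUNX1 bone marrow was left out and under median-of-ratios scaling. Leaving out the first replicate of ETV6-RUNX1 bone marrow lowered the fusion count from 4 to 2. Hk1 was nominally lower in fetal liver in both genotypes, by -0.49 in WT and -0.58 in fusion cells, with limma adjusted p of 0.196 and 0.0724. Pgk1, Pkm and Pfkp passed in neither genotype.

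Ratios of isozymes within a library do not depend on how libraries are scaled. With 3 libraries against 3, an exact two-sided permutation test cannot go below p = 0.1, so none of the 12 ratio tests could pass, and the lowest Benjamini-Hochberg adjusted value was 0.133. The CPM of Hk2 per CPM of Hk1 averaged 0.445 ± 0.103 (SD, n = 3) in WT fetal liver, 0.260 ± 0.0375 in ETV6-RUNX1 fetal liver, 0.192 ± 0.0715 in WT bone marrow and 0.106 ± 0.0213 in ETV6-RUNX1 bone marrow. In each of its 4 comparisons the groups did not overlap, and the log2 difference was -0.76 with the fusion in fetal liver and -0.82 in bone marrow (exact permutation p = 0.1 for both). Between sources it was 1.25 in WT and 1.31 in fusion cells. The ratio was thus highest in WT fetal liver and lowest in fusion bone marrow.

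The ratio of Pfkp to Pfkl was 0.331 ± 0.0219 in WT fetal liver and 0.510 ± 0.0961 in ETV6-RUNX1 fetal liver, without overlap (log2 difference 0.61, exact permutation p = 0.1). In bone marrow it was 0.452 ± 0.0261 in WT and 0.422 ± 0.0269 in fusion cells, with overlap (log2 difference -0.10, exact permutation p = 0.3). Ldhb encodes the heart-type subunit that favours the way from lactate to pyruvate. The ratio of Ldha to Ldhb was 22.1 ± 1.87 in WT fetal liver, 17.0 ± 3.23 in ETV6-RUNX1 fetal liver, 11.3 ± 3.51 in WT bone marrow and 8.63 ± 1.28 in ETV6-RUNX1 bone marrow. Fetal liver was above bone marrow without overlap in both genotypes, by 1.01 and 0.97 on the log2 scale (exact permutation p = 0.1 for each). With the fusion it was lower without overlap in fetal liver (-0.40, exact permutation p = 0.1), and the groups overlapped in bone marrow (-0.35, exact permutation p = 0.3).

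**Figure D3:**
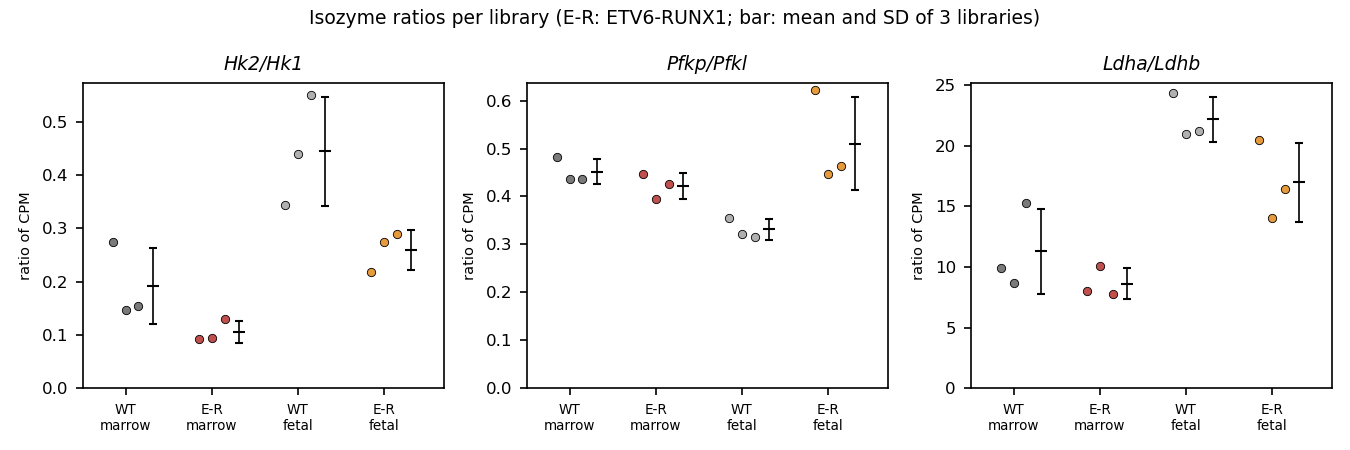
Ratios of CPM of 2 isozymes in every library, with bars for the mean and SD of the 3 libraries of each group (vertical axes from 0, 1 panel per ratio). Hk2 to Hk1 was highest in WT fetal liver, with a mean of 0.445, and lowest in ETV6-RUNX1 bone marrow, with 0.106; Ldha to Ldhb was higher in all fetal liver libraries of a genotype than in its bone marrow libraries.

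The enzymes were also compared with each other over the 12 libraries. Gapdh, Pgk1, Eno1 and Ldha had Pearson r of log2(CPM + 1) between 0.86 and 0.97 over their 6 pairs. These 4 are the enzymes called lower with the fusion in both sources, and that shared difference by itself raises r among them. Over all 45 pairs of the 10 the median was 0.41. Hk1 ran against most of the others, with r from -0.89 to 0.29 and a median of -0.72. These values include the differences between the 4 groups, which the libraries share, and carry no p. Against the mean of the 10 standardized profiles, in which it is included, Hk1 had r = -0.66. After the group means were removed that r was 0.21. Among 9865 genes searched, the gene whose pattern was most like that of Gapdh was the ribosomal protein gene Rpl6 (r = 0.99), that of Pgk1 was the chaperonin subunit gene Cct7 (0.98), that of Eno1 was Gtf2f2, a subunit of a general transcription factor (0.98), and that of Ldha was the tubulin gene Tuba1c (0.97). For Hk1 it was Dennd3 (0.98), for Pfkl Gpaa1 (0.98), for Pfkp the mitotic kinesin gene Kif14 (0.92), for Aldoa Jpt1 (0.98) and for Pkm the lysosomal protease gene Ctsd (0.95). For Hk2 it was Xist (0.97), and after the group means were removed that value was 0.52. With the mean of the 10 standardized profiles, the 5 most alike genes were Adap1, Hsd17b7, Poc1a, Ppp2r1a and Cs, which encodes citrate synthase of the tricarboxylic acid cycle, with r from 0.94 to 0.95.

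The rest of the pathway was followed through 10 gene lists, each given by the genes that passed limma among those tested. Each count reads against the share of all genes called, 24.8% higher and 18.3% lower in fetal liver and 14.4% and 4.93% in bone marrow. The counts of the lists were not recomputed under the alternatives, while the named genes were. Of the other isozymes and steps of glycolysis, 10 of 17 were tested, and in fetal liver 2 rose and 5 fell with the fusion (median -0.42), while in bone marrow 1 rose and 2 fell (median -0.28). Tpi1, triose phosphate isomerase, fell from a mean of 518 ± 13.7 to 227 ± 30.8 CPM in fetal liver (SD, n = 3, log2FC -1.19 with SE 0.14, limma adjusted p = 1.25e-05) and by 0.59 in bone marrow (limma adjusted p = 0.0102). Pgam1, phosphoglycerate mutase, fell in fetal liver from 126 to 63.1 CPM (log2FC -0.99 with SE 0.16, limma adjusted p = 0.000185), and Gpi1, glucose phosphate isomerase, from 563 to 386 CPM (log2FC -0.55 with SE 0.13, limma adjusted p = 0.00420). Aldoc, the brain-type aldolase, fell by 1.21 in fetal liver and 0.53 in bone marrow (limma adjusted p = 7.51e-05 and 0.0437). The bone marrow call of Aldoc was lost under 11 of 22 alternatives, among them the omission of any WT library of either source, of ETV6-RUNX1 bone marrow replicate 1 or 2 and of ETV6-RUNX1 fetal liver replicate 2 (limma adjusted p up to 0.183).

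Eno2, the neuron-type enolase, went the other way from Eno1. It rose from 2.47 ± 0.315 to 13.2 ± 3.24 CPM in fetal liver and from 5.01 ± 1.08 to 11.2 ± 0.546 CPM in bone marrow (SD, n = 3, log2FC 2.01 with SE 0.20, limma adjusted p = 3.63e-06 and log2FC 1.04 with SE 0.20, limma adjusted p = 0.00380), from far lower levels than Eno1. Pfkm, the muscle-type phosphofructokinase, and Ldhb did not pass in fetal liver, with -0.18 and -0.28 on the log2 scale (limma adjusted p = 0.441 and 0.282).

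Of 8 genes for glucose and lactate transport, 3 rose and 1 fell in fetal liver and 1 rose in bone marrow. The single rise in bone marrow, 1 of 8, is near the 14.4% of all genes. Slc2a3, which encodes the glucose transporter GLUT3 of neurons and platelets, rose from 387 ± 132 to 1195 ± 270.5 CPM in fetal liver (log2FC 1.65 with SE 0.31, limma adjusted p = 0.000777). In the same libraries the megakaryocyte markers summed to 3104 to 4597 CPM in WT and 7310 to 8105 CPM in fusion cells, with 4 of 7 called as higher and 1 as lower, and their part in this result was not tested. Slc2a1, the widely expressed transporter GLUT1, did not pass (-0.11, limma adjusted p = 0.576). The lactate transporter gene Slc16a1 fell (log2FC -1.22 with SE 0.24, limma adjusted p = 0.000997), and Slc16a3, the lactate exporter of glycolytic cells, did not pass (-0.33, limma adjusted p = 0.505). Slc2a6, an intracellular transporter gene, and Slc16a7, another monocarboxylate transporter gene, rose by 1.80 and 0.81 on the log2 scale from low levels (limma adjusted p = 0.0285 and 0.0240). Slc2a6 was 1.53, 0.602 and 1.33 CPM in WT and 11.8, 1.74 and 10.3 CPM in fusion fetal liver, so fusion replicate 2 lay close to WT. Its call was lost under 6 of 22 alternatives and that of Slc16a7 under 4, in both cases without ETV6-RUNX1 fetal liver replicate 3 or WT fetal liver replicate 3, and for Slc2a6 also without ETV6-RUNX1 replicate 1 or WT replicate 2.

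Of 5 genes that set fructose 2,6-bisphosphate, the activator of phosphofructokinase, 2 rose in fetal liver, Pfkfb3 from 15.9 to 31.8 CPM (log2FC 0.99 with SE 0.33, limma adjusted p = 0.0266) and Pfkfb4 from 8.65 to 17.2 CPM (log2FC 0.91 with SE 0.18, limma adjusted p = 0.000975), and 0 passed in bone marrow (median -0.19). The call of Pfkfb3 was lost under 6 of 22 alternatives, namely with all genes with reads tested, with the pseudogene covariate (log2 difference 0.38, limma adjusted p = 0.320), and on leaving out replicate 1, 2 or 3 of ETV6-RUNX1 fetal liver or replicate 3 of WT fetal liver. Of gluconeogenesis and glucose phosphate release, 4 of 7 genes were tested and 2 fell in fetal liver, among them G6pc3, the widely expressed glucose 6-phosphatase, which also fell in bone marrow (-0.82 and -0.79, limma adjusted p = 0.000244 and 0.00159). Of pyruvate entry into mitochondria, 12 of 13 were tested and 4 fell in fetal liver, with Pdha1 and Pdhb, subunits of pyruvate dehydrogenase, falling in both sources (-0.59 and -0.55 in fetal liver, -0.52 and -0.61 in bone marrow). The bone marrow call of Pdha1 was lost under 4 of 22 alternatives, the pseudogene covariate and the omission of ETV6-RUNX1 replicate 2 or WT replicate 2 or 3. In bone marrow 1 of the 12 rose and 2 fell. Of 7 pentose phosphate genes, 2 fell in fetal liver, and in bone marrow 1 rose and 2 fell. Tkt, transketolase, fell in both (log2FC -0.67 with SE 0.11, limma adjusted p = 0.000272 and log2FC -0.38 with SE 0.11, limma adjusted p = 0.0290). The bone marrow call of Tkt was lost under 9 of 22 alternatives, among them quantile normalization, the replicate block and the omission of any WT bone marrow library or of ETV6-RUNX1 replicate 1 or 2 (limma adjusted p up to 0.184).

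The serine branch, which draws 3-phosphoglycerate from between the Pgk1 and Eno1 steps, fell in 5 of 5 genes in fetal liver (median -1.25) and in 4 of 5 in bone marrow (median -0.50). Shmt2, the mitochondrial serine hydroxymethyltransferase, was 294, 309.6 and 286 CPM in WT and 118, 98.1 and 114 CPM in fusion fetal liver (log2FC -1.42 with SE 0.12, limma adjusted p = 4.59e-07). Phgdh, the entry enzyme of the branch, fell by 1.25 and 0.50, and Psat1, its aminotransferase, by 1.44 and 0.95, on the log2 scale in fetal liver and bone marrow. In bone marrow the call of Phgdh was lost without ETV6-RUNX1 replicate 2 or WT replicate 1 or 2 and that of Shmt2 without ETV6-RUNX1 replicate 2 or WT replicate 3. The factors that choose the exon of the growth isoform of Pkm fell in 3 of 4 genes in fetal liver and 2 of 4 in bone marrow, with Hnrnpa1 at -1.25 and -0.62 and Srsf3 at -0.76 and -0.43. The bone marrow call of Srsf3 was lost without ETV6-RUNX1 replicate 2. The gene-level table does not separate the Pkm isoforms.

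Of 8 HIF pathway regulators, 3 rose in fetal liver (Epas1, Arnt and Hif1an) and 2 in bone marrow (Epas1 and Egln2), with 0 falling in either. The call of Hif1an was lost under 7 of 22 alternatives (log2 difference 0.20 to 1.04), among them quantile normalization and the omission of ETV6-RUNX1 fetal liver replicate 1 or 2 or WT fetal liver replicate 2 or 3, and that of Arnt under 2, the pseudogene covariate and the omission of WT fetal liver replicate 3. Egln2 was named after its values were seen. Hif1a, the main HIF subunit gene for glycolysis, was 32.9 ± 2.68 CPM in WT and 37.6 ± 4.57 CPM in fusion fetal liver (SD, n = 3), which did not pass (0.18, limma adjusted p = 0.547). Epas1, which encodes HIF-2 alpha, rose by 1.00 and 1.07 on the log2 scale in fetal liver and bone marrow, from low levels (0.671 to 2.36 CPM and 1.85 to 4.81 CPM). Of 15 HIF targets outside glycolysis, 13 were tested, and 2 rose and 1 fell in fetal liver, 3 rose and 1 fell in bone marrow. In fetal liver both shares lie below those of all genes. Ndrg1, a stress-induced gene, rose in both (1.07 and 0.69), and Car12, a carbonic anhydrase gene, fell in both (-0.87 and -0.82). In bone marrow the call of Ndrg1 was lost under 10 of 22 alternatives, edgeR, array weights and median-of-ratios scaling among them, and that of Car12 under 8 of 21, DESeq2 and edgeR among them. Each was also lost without ETV6-RUNX1 bone marrow replicate 2 or WT bone marrow replicate 3, among other single libraries. In fetal liver Car12 was lost under 2 of 21, the pseudogene covariate and the omission of ETV6-RUNX1 replicate 1. Myc was 266, 229 and 226 CPM in WT and 104, 112 and 157 CPM in fusion fetal liver, a fall without overlap (log2FC -0.96 with SE 0.16, limma adjusted p = 0.000253), and it was 329, 399.9 and 371 CPM in WT and 424, 369 and 337 CPM in fusion bone marrow, where the groups overlapped.

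**Figure D4:**
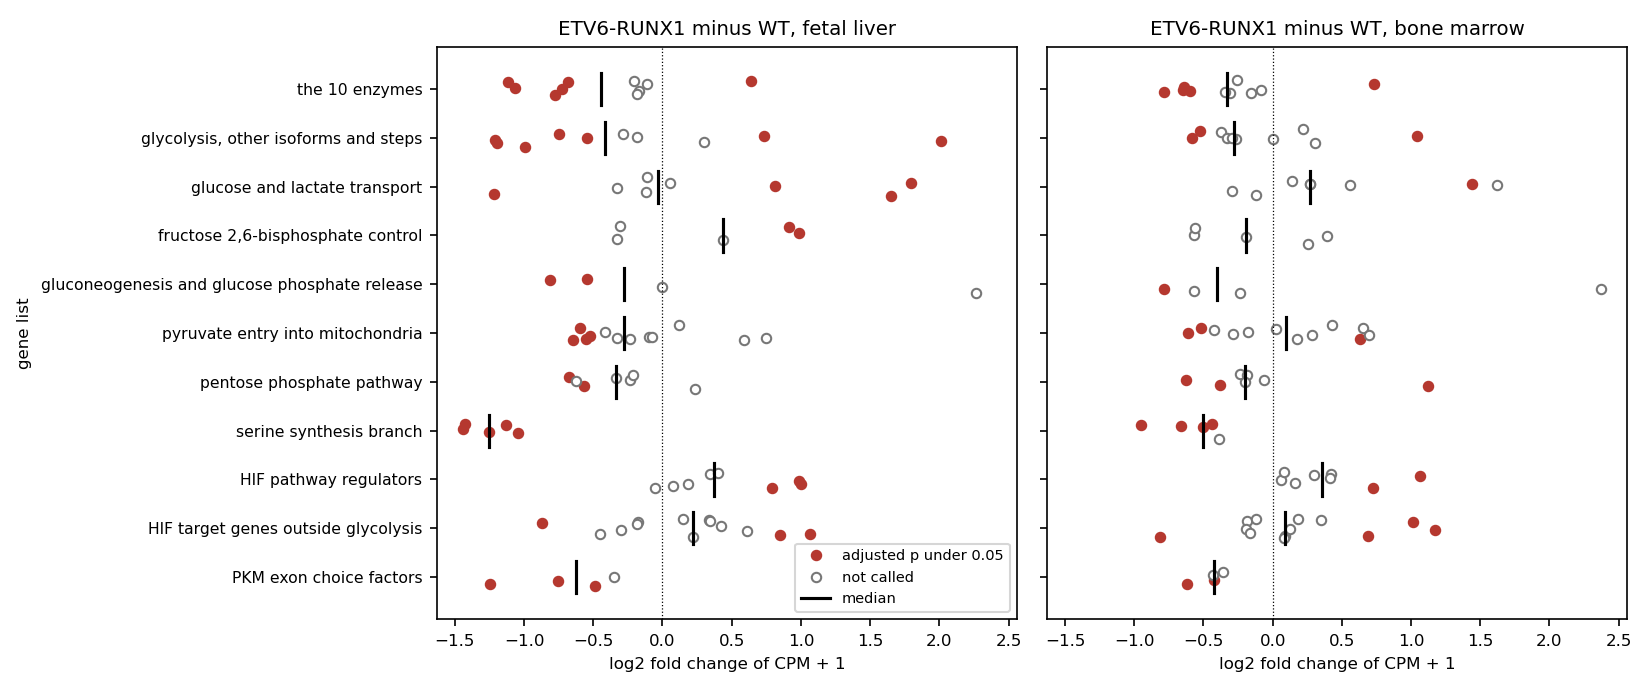
Log2 fold change of CPM + 1 with ETV6-RUNX1 (horizontal axis) for each tested gene of the 10 enzymes and of 10 lists of pathway genes (rows), in fetal liver on the left and bone marrow on the right. Red points passed limma at an adjusted p under 0.05 and black bars are medians: the serine branch lay lowest, at a median of -1.25 in fetal liver and -0.50 in bone marrow.

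These are bulk libraries, in which fewer cells of a type and less RNA per cell cannot be told apart. Beside the falls in fetal liver, 7 of 9 HSC markers, 6 of 7 tested erythroid markers and 4 of 7 megakaryocyte markers were called as higher with the fusion by limma, against 24.8% of all genes, and 1 megakaryocyte marker, Gp9, was lower. The 10 granulocyte and monocyte markers summed to 258 to 355 CPM in WT and 106 to 117 CPM in fusion cells, and of the 5 tested 2 were lower (Mpo and Prtn3) and 2 higher (Csf1r and Itgam). Mitochondrially encoded genes took 1.34 to 1.69% of reads in WT and 0.921 to 1.10% in fusion fetal liver. In bone marrow 5 of 9 HSC markers were called as higher, against 14.4% of all genes. Of 7 erythroid markers 0 were higher and 1 lower (Rhag), of 7 megakaryocyte markers 0 were higher and 1 lower (Gp9, by -2.51 on the log2 scale), and of 5 granulocyte and monocyte markers 2 were higher (Csf3r and Itgam) and 1 lower (Prtn3). There processed pseudogenes took 1.60 to 2.23% of reads in WT and 2.12 to 2.55% in fusion cells. Macrophage markers summed to 33.9 to 55.1 CPM in WT and 81.5 to 104 CPM in fusion bone marrow, and to 38.8 to 47.1 and 101.1 to 111 CPM in fetal liver, higher with the fusion without overlap in both, and Cd68 was called as higher in both. Only 2 of these 6 markers, Cd68 and Adgre1, reached 1 CPM in any library. Cd68 alone averaged 42.0 CPM in WT and 89.7 in fusion bone marrow, and 43.5 and 104.6 CPM in fetal liver. The sums are therefore largely those of 1 gene. Mast cell and basophil markers summed to 27.9 to 45.6 CPM in WT and 9.35 to 16.2 CPM in fusion bone marrow, and overlapped in fetal liver (7.78 to 12.4 and 7.65 to 13.6 CPM). Stroma and endothelium markers summed to 74.6 to 106 CPM in WT and 146 to 175 CPM in fusion fetal liver, and overlapped in bone marrow (65.3 to 98.5 and 88.9 to 96.9 CPM). Pecam1 alone was 59.3 to 82.1 CPM in WT and 122 to 155 CPM in fusion fetal liver. Of the 5 tested there, 2 were called as higher (Pecam1 and Cdh5) and 1 as lower (Pdgfrb, log2FC -2.29, limma adjusted p = 3.07e-05). Hepatocyte markers summed to at most 36.8 CPM, and B and T cell markers to at most 1.90 CPM, with Cd3e, Prss34 and Serpina1a at 0 throughout. The part of these differences in cell type markers in the enzyme levels was not tested. The pseudogene share, used as a covariate, does not measure cell types. With it the calls of Gapdh, Pgk1, Eno1 and Ldha held in both sources. That of Hk1 was lost in fetal liver (limma adjusted p = 0.365) and held in bone marrow, where its log2 difference was 1.11, the largest over its alternatives. The difference of the Hk1 effects between sources was then -0.85, which did not pass.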

How the data were processed

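The deposited file is a table of CPM per gene, made by the authors, with the 12 libraries as columns. STAR 2.5.1a, featureCounts 1.4.6-p5 and GRCm38 are named in the submitters' processing notes, which also name Salmon 0.8.2, edgeR and limma without saying where each was used. In each library 100% of the values came out as whole reads within 0.01 when divided by the worth of 1 read, which also gave the totals. The CPM values of a library summed to 99.84 to 99.87% of the common total. No scaling between libraries beyond the total was therefore seen in the deposited CPM values. Of 40757 entries, 276 repeated a gene identifier and were kept once, and 11203 of the 40481 genes had no reads. The strand setting and the treatment of multimapping reads are not given in the sources used here.

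Values were taken as log2(CPM + 1), and fold changes are on that scale, which understates changes of low genes. The test covered genes that reached 1 CPM in 3 or more libraries, 14271 in all, and used limma 3.58.1 (mean-variance trend, two-sided, 1 coefficient per group, 8 residual degrees of freedom, Benjamini-Hochberg over all genes tested, threshold 0.05). edgeR 4.0.16 and DESeq2 1.42.0 on recovered reads, other scalings, filters and weights, a replicate block and the omission of each library were the 22 alternatives. The limma and edgeR fits, but not that of DESeq2, were run on simulated counts in which a small set of genes was raised. That setting is simpler than these data, where calls were common in both directions. Replicates differed beyond sampling noise in every group. Genes outside the 10 were named by rule: at most 4 per list with the smallest adjusted p in the fetal liver genotype comparison, plus Hif1a, Slc2a1, Slc16a3, Gpi1, Tpi1, Pgam1, Ldhb, Pfkm and Myc. Some genes of the lists are not reported here and were left out of their counts and sums. The enzymes and lists were chosen with earlier results of these data known. Exon lengths and positions came from GENCODE M21 on GRCm38, promoters from RefSeq.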

Additional observations from a re-analysis of the deposited data

Results flagged for a closer look

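The effect of the fusion differed between fetal liver and bone marrow, by a limma interaction test at an adjusted p under 0.05, for none of the 10 enzymes and for 7 of 47 named genes around them, against 9.19% of all genes. Most of these genes were named for a small adjusted p in the fetal liver genotype comparison, which enters this test, so the count is a description. The difference of the effects on the log2 scale (fetal liver minus bone marrow, n = 3 libraries per group) was 1.95 for the glucose transporter gene Slc2a3 (limma adjusted p = 0.0144) and 0.97 for the enolase gene Eno2 (limma adjusted p = 0.0488). It was -0.75 for Phgdh (limma adjusted p = 0.0258) and -0.99 for Shmt2 (limma adjusted p = 0.00232) of the serine branch. It was -0.63 for the splicing factor gene Hnrnpa1 (limma adjusted p = 0.0289), -0.999 for Myc (limma adjusted p = 0.0131) and -1.75 for Pgls, a pentose phosphate enzyme gene (limma adjusted p = 0.0188). The call of Shmt2 was lost under 0 of 22 alternatives, that of Myc under 1 (the pseudogene covariate), that of Slc2a3 under 2 and that of Pgls under 3. Slc2a3 was lost with all genes with reads tested and with the covariate, where the difference was 0.55 (limma adjusted p = 0.304), and Pgls in these 2 and on leaving out replicate 2 of ETV6-RUNX1 fetal liver. The calls of Phgdh and Hnrnpa1 were each lost under 11 of 22, edgeR and median-of-ratios scaling among them, and that of Eno2 under 12 of 22 (limma adjusted p up to 0.129), 9 of them the omission of 1 library. Slc2a3 was 536, 339.8 and 284 CPM in WT and 1395, 1302 and 887 CPM in fusion fetal liver, and 179, 337 and 401 and 243, 319 and 167 CPM in bone marrow, where the genotypes overlapped. Pgls was 14.7, 14.47 and 17.6 CPM in WT and 49.3, 36.5 and 23.6 CPM in fusion bone marrow, where it rose, and 31.4, 25.8 and 17.0 and 15.5, 10.2 and 22.0 CPM in fetal liver, where the genotypes overlapped.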

How the results depend on the processing

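The counts over all genes and over the 10 enzymes and each named gene were recomputed under 22 alternatives (21 for Epas1, Car12 and Vegfa, which missed a mean of 5 CPM), and the isozyme ratios under up to 8. The counts of the pathway and marker lists were not. The ratios kept their direction in every one of theirs. In fetal liver the number of enzymes called between genotypes ranged from 5 to 7. In bone marrow it was 6 with DESeq2 and with edgeR, 0 higher and 6 lower against 1 and 4 by limma, 3 when all genes with reads were tested and 3 to 5 with a library left out, where the count over all genes was 1493 to 2901. For the difference between sources, 1 enzyme (Pfkl) was called with array weights, and all genes numbered 767 with all genes with reads tested, 3637 with array weights, 543 with the pseudogene covariate and 697 to 2329 with a library left out, highest without WT bone marrow replicate 1. For fetal liver against bone marrow in WT, the enzymes called were 1 with all genes with reads, 7 with array weights (4401 over all genes), 1 under quantile normalization and 1 to 5 with a library left out (864 to 2785 over all genes). In ETV6-RUNX1 cells leaving out a library gave 2 to 5 enzymes and 2695 to 4609 genes.

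Signs turned only for values that had not passed in the limma test as reported. In fetal liver, quantile normalization gave 0.29 for Aldoa and 0.30 for Pkm, array weights gave 0.078 for Pcx, and leaving out a library gave -0.66 to 0.031 for Slc16a3 and -0.13 to 0.18 for Pcx. In bone marrow the pseudogene covariate gave 0.011 for Pfkl. For the difference between sources, DESeq2, edgeR and array weights gave 0.016, 0.0038 and 0.17 for Hk1. DESeq2, edgeR, median-of-ratios scaling, the pseudogene covariate and quantile normalization gave 0.042, 0.030, 0.052, 0.12 and 0.028 for Hk2. The covariate gave -0.28 for Pfkp and -0.044 for Pkm. DESeq2, edgeR, median-of-ratios scaling and quantile normalization gave 0.045, 0.031, 0.043 and 0.14 for Ldha. With a library left out these differences ran from -0.26 to 0.24 for Hk1, -0.12 to 0.037 for Hk2, -0.11 to 0.21 for Pfkp and -0.11 to 0.069 for Ldha. Between sources in WT, array weights gave -0.036 for Pfkl (-0.13 to 0.13 with a library left out), and DESeq2, edgeR and median-of-ratios scaling gave 0.012, 0.020 and 0.0094 for Pkm. In ETV6-RUNX1 cells DESeq2, array weights, edgeR, median-of-ratios scaling and the covariate gave 0.15, 0.075, 0.14, 0.17 and 0.11 for Gapdh, quantile normalization gave -0.057 for Pgk1, and the covariate gave -0.10 for Pkm. With a library left out the range was -0.10 to 0.15 for Gapdh, -0.10 to 0.14 for Pgk1, -0.022 to 0.30 for Eno1 and -0.010 to 0.20 for Pkm. The cause was not tested for any of these.

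No pairing of libraries by the replicate numbers of the labels was seen. After group means were removed, same-numbered libraries of different groups correlated from -0.521 to 0.484 (7 of 18 pairs over 0.1). Libraries with different numbers correlated from -0.577 to 0.732 (14 of 36 pairs over 0.1). Residuals within a group are tied by its mean, so these values cannot exclude a pairing by number. With the number as a replicate block the enzymes called were 5 in fetal liver, 4 in bone marrow, 0 for the difference, 2 between sources in WT and 4 in ETV6-RUNX1 cells, and the isozyme ratio differences were the same (-0.76 for Hk2 to Hk1 in fetal liver).

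With 3 libraries per group the isozyme ratio tests could not pass. Counting error of reads was small at these CPM values beside the spread between libraries. Reads without molecular identifiers do not show how many molecules were sampled, so what part of that spread comes from sampling was not tested. Genes with overlapping neighbours or near copies, Pfkp and Eno1 among them, stay uncertain, and the sources differ in Xist. Exons of Hk1 overlap those of Hk1os (2.96 to 7.46 CPM) on the other strand. So do those of Gapdh with Iffo1 (4.40 to 12.7 CPM) and of Aldoa with Fam57b (0 to 0.340 CPM). Exons of Pkm overlap those of Gm49759 on the same strand, a gene with no value here.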

Other observations

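Hk3, a hexokinase gene of myeloid cells that lies outside the 10 enzymes and was chosen after its values were seen, also differed by source. It was 25.2 ± 6.03 CPM in WT bone marrow and 25.4 ± 6.67 CPM in fusion bone marrow, against 2.26 ± 0.361 CPM and 4.67 ± 2.14 CPM in fetal liver (SD, n = 3). Fetal liver was lower by -2.99 on the log2 scale in WT and -2.26 in fusion cells (limma adjusted p = 7.29e-06 and 3.09e-05), and both calls held under all 22 alternatives. Hk2, the other hexokinase that followed the source, went the opposite way.

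Fbp1, the gluconeogenic fructose 1,6-bisphosphatase, varied widely between the fusion libraries of a source. It was 151, 9.06 and 128 CPM in the 3 fusion bone marrow libraries and 0.567, 51.7 and 12.7 CPM in the 3 fusion fetal liver libraries, against 8.63, 11.8 and 10.6 CPM and 1.36, 0.770 and 1.43 CPM in the WT libraries of the same sources. Neither genotype difference passed (limma adjusted p = 0.126 in bone marrow and 0.0955 in fetal liver). The fetal liver difference was called with DESeq2, with edgeR and without ETV6-RUNX1 fetal liver replicate 1 or ETV6-RUNX1 bone marrow replicate 2, and ran from 1.06 to 4.10 on the log2 scale over its 22 alternatives.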
